A study of Mus musculus with 2 samples.

Results

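The events described here are those on mouse chromosome 9 in 6 deposited lists of histone-mark events, 2332 of 21418 in all. The other 19077 lie on 19 other chromosomes and 9 lie on unplaced contigs. The lists compare Dicer KO with Dicer WT mesenchymal stromal cells (MSCs), which the sample titles call fibroblasts. For each of 3 marks, H3K27ac, H3K4me3 and H3K36me3, there is 1 list of events higher in KO and 1 list of events higher in WT. Membership was set by the chromosome name in each list, and chromosome 9 was selected on its measured event counts and expected read counts in these same lists. Those values, and the ratios that made the 2-fold sites, are therefore given as a description, with no test. All positions below are on chromosome 9 in mouse build mm9.

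Both groups are immortalized lines of monoclonal origin, grown in the same medium and fixed with formaldehyde. They differ in the labels only by genotype, and neither the Dicer allele nor how it was deleted is given in the sources used here. With clonal lines, the genotype and the history of a clone cannot be told apart. The labels describe samples for H3K27ac only, 1 per genotype. The H3K4me3 and H3K36me3 lists carry the same genotype names. Each list gives 1 value per genotype, with no library total. The H3K27ac values are of pooled replicates, per the names of the lists, and the series' design speaks of 2 replicates per genotype; whether the other marks were pooled is not stated. The spread between replicates therefore cannot be recovered, no test between genotypes was possible, and the intervals below cover counting error only. The lists hold no expression values and no gene names, so the labelled cell type was not checked against markers.

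Dicer cuts microRNA precursors, and cells without it lack most mature microRNAs. Acetylation of lysine 27 of histone H3 marks active enhancers and promoters, trimethylation of lysine 4 marks promoters, and trimethylation of lysine 36 covers the bodies of transcribed genes. In chromatin immunoprecipitation each mark stands on a background of reads from unmarked DNA, which is spread along a chromosome. A mark that differs at a site changes the reads at that site against that background, whereas a difference of the whole chromosome moves the background as well.

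The sequences that the lists attach to events on chromosome 9 are k-mers of 8 bases, shown here because they are the DNA letters deposited with these events. What the column reports is not defined in the sources used here. Each is written 5′ to 3′, and capitals mark the bases at which the k-mers of 1 list differ from each other.
H3K4me3 list of events higher in WT, attached to 34 events: cGcccGgt
H3K4me3 list of events higher in WT, attached to 33 events: cGcccTgt
H3K4me3 list of events higher in WT, attached to 21 events: cCcccGgt
H3K36me3 list of events higher in WT, attached to 13 events: gtGgtgtg
H3K36me3 list of events higher in WT, attached to 13 events: gtTgtgtg
The 3 GC-rich k-mers of H3K4me3 were attached to 88 of 1409 events on chromosome 9, a share of 6.25% (95% Clopper-Pearson interval 5.04 to 7.64), against 6.41% on the other chromosomes. The 2 GT-rich k-mers of H3K36me3 were attached to 26 of 624 events, 4.17%, against 4.90% elsewhere. The k-mers were thus about as frequent on chromosome 9 as on the other chromosomes. None of the 11 H3K4me3 events higher in KO carried one, which with 11 events allows a share of up to 28.5%, while 17.3% of such events on the other chromosomes did.

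On chromosome 9 the lists leaned towards WT for H3K4me3 and H3K36me3 and were close to balanced for H3K27ac. For H3K4me3, 11 events were higher in KO and 1409 were higher in WT. For H3K36me3, 22 were higher in KO and 624 were higher in WT. For H3K27ac, 118 were higher in KO and 148 were higher in WT. The share higher in KO was therefore 44.4% for H3K27ac (interval 38.3 to 50.6), 0.775% for H3K4me3 (0.387 to 1.38) and 3.41% for H3K36me3 (2.15 to 5.11). The H3K36me3 events higher in KO were called by GPS and those higher in WT by GEM, 2 event-calling programs, so program and direction cannot be told apart in that share. Over all chromosomes, 82.5% of listed H3K27ac events, 11.8% of H3K4me3 events and 33.8% of H3K36me3 events were higher in KO. Chromosome 9 held 25.4% of the H3K4me3 events higher in WT and 18.7% of the H3K36me3 events higher in WT, the most of the 20 chromosomes in both lists. In the lists of events higher in KO it held 1.42% for H3K27ac, 1.49% for H3K4me3 and 1.29% for H3K36me3. Runs of neighbouring events account for part of these counts: merged within 5 kb, the H3K4me3 lists held 11 sites higher in KO and 537 higher in WT, and the H3K36me3 lists 15 and 316.

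The background of chromosome 9 was itself lower in KO. For H3K27ac and H3K4me3 each list gives, in its expected-count column, 1 expected read count per chromosome for the genotype it calls higher, and this value served as that genotype's background. For H3K27ac the background of chromosome 9 was 152.1 reads in KO and 212.1 reads in WT, a KO-to-WT ratio of 0.717. For H3K4me3 it was 106.4 reads in KO and 126.7 reads in WT, a ratio of 0.840. Divided by the ratio of the median chromosome, these became 0.632 for H3K27ac and 0.654 for H3K4me3, or -0.66 and -0.61 on the log2 scale. Both were the lowest of the 20 chromosomes. The next lowest were chromosome 10 for H3K27ac, at 0.820, and chromosome 19 for H3K4me3, at 0.785, and chromosome 12 was highest in both marks, at 1.27 and 1.202. The sources do not define what the expected count covers, and it was not a lower bound of the reads at an event. H3K27ac events higher in WT had a median of 80 reads in KO, and those higher in KO had 135 in WT. Both lie under the H3K27ac values above, and the H3K4me3 event at 68501240 had only 4 reads in KO. The expected count therefore served as a divisor and may differ from the reads of unmarked DNA at a site. What sets the background of a chromosome was not tested.

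The H3K36me3 lists give a local expected count for each event in place of 1 value per chromosome. The lowest such value on chromosome 9 was 7.3 in the KO list, at 1 of 22 events, and 19.1 in the WT list, at 42 of 624 events. Their ratio of 0.382 was 0.711 of the median chromosome's, again the lowest of the 20 chromosomes, ahead of chromosome 10 at 0.810. This measure was chosen after the values were seen and rests on a single event in KO, so the H3K36me3 ratios below stay on the authors' scale.

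Ratios are given on 3 scales, always for the genotype that the list calls higher over the other. The authors' scale compares the reads of 1 genotype with the scaled reads of the other, as deposited. The chromosome-corrected scale removes only the amount by which the background of chromosome 9 departs from the median chromosome. The own-background scale divides the unscaled reads of each genotype by that genotype's own background on the chromosome. Within 1 list on chromosome 9 the scales differ by a constant factor, so they keep the order of the events and move only the point of equality. The own-background scale also replaces the authors' scaling between the 2 genotypes, and it takes the expected counts of both lists to cover regions of the same width, which the sources do not state. In ChIP of a cell population, fewer cells carrying a mark and less of the mark per cell cannot be told apart.

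How far the H3K4me3 events higher in WT stood from equality depended on the scale. Their median WT-to-KO ratio was 2.94 on the authors' scale, 1.92 on the chromosome-corrected scale and 1.14 on the own-background scale, with quartiles of 0.980 and 1.31. On the 19 other chromosomes the medians were 3.05, 2.83 and 1.68. The ratios of events on chromosome 9 were thus close to those elsewhere as deposited and lower than elsewhere on the other 2 scales. The lower values follow from the low KO background of chromosome 9, among the values on which it was selected. The move from 1.92 to 1.14 came with the replaced scaling between genotypes, which also lowered the median of the other chromosomes. On the chromosome-corrected scale 18 events had a ratio below 1. The own-background median was the lowest of the 20 chromosomes. Median reads were 532 in KO and 705 in WT, beside backgrounds of 106.4 in KO and 126.7 in WT.

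At least 2-fold differences at H3K4me3 events higher in WT numbered 1319 of 1409 on the authors' scale (93.6%, against 93.5% over all chromosomes). They numbered 603 on the chromosome-corrected scale (42.8%, against 76.1%) and 105 on the own-background scale (7.45%, against 30.1%). A further 1303 events lay within 2-fold of equality in either direction on the own-background scale, and 383, or 27.2%, had a ratio below 1, that is, more reads per background in KO. The single event that was over 2-fold higher in KO on that scale stood at 106355861, with 704 reads in KO and 391 reads in WT. The share was 7.45% here, 8.95% on chromosome 19 and 14.6% on chromosome 10.

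**Figure D1:**
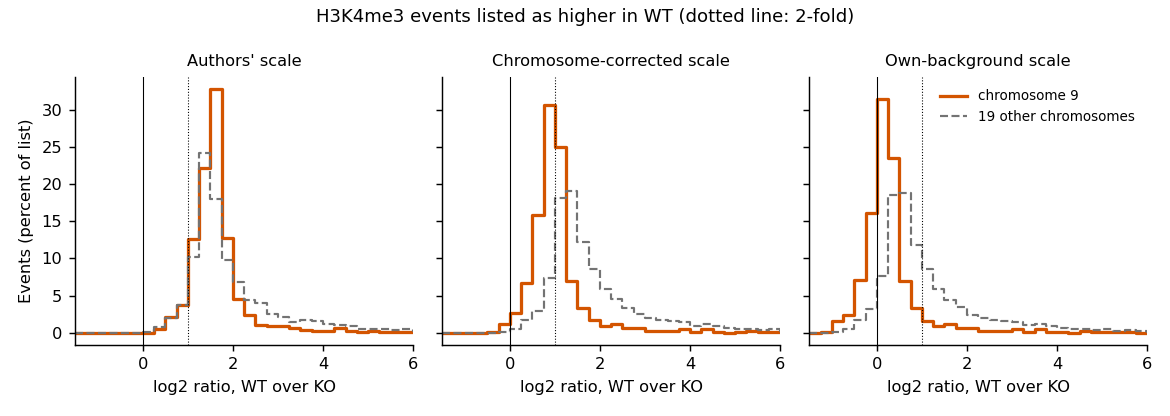
Histograms of the WT-to-KO ratio of H3K4me3 events higher in WT, on a log2 axis, for chromosome 9 and the 19 other chromosomes on each of the 3 scales. The 1409 events of chromosome 9 have medians of 2.94, 1.92 and 1.14, and on the own-background scale most of them stand near equality with a tail of 105 events at 2-fold or more.

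The spread around the background depended on depth. Among the 436 events with 1000 or more reads in WT, the median own-background ratio was 1.19, the quartiles were 1.10 and 1.29, and 6 events (1.38%, interval 0.507 to 2.97) reached 2-fold. Among the 479 events with 500 to under 1000 reads, the median was 1.13 and 27 events (5.64%) reached it. Among the 494 events with fewer than 500 reads, the median was 1.04, the quartiles were 0.854 and 1.42, and 72 events (14.6%) reached it. Most of the sites that stayed apart were therefore among the weaker H3K4me3 events. The same order was seen on the other chromosomes, where 12.6%, 35.1% and 50.2% of the 3 classes reached 2-fold.

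The 105 H3K4me3 events that stayed at least 2-fold higher in WT formed 79 sites, of which 10 are named by the lower limit of their own-background ratio. For 81 of the 105 events, the whole interval lay at 2-fold or more. The event at 68501240 had 4 reads in KO and 382 reads in WT, a WT-to-KO ratio of 80.2 (interval 31.1 to 296). It leads a site of 4 events up to 68502918 with 118 reads in KO and 2425 in WT, a ratio of 17.3. The event at 31840260 had 6 reads in KO and 341 in WT, a ratio of 47.7 (21.7 to 131). These are places where KO had 6 or fewer H3K4me3 reads at the leading event and WT had 341 or more, unlike the typical event of this list.

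The event at 43552999 had 11 reads in KO and 474 in WT, a ratio of 36.2 (20.04 to 73.0). At 122796232 there were 6 reads in KO and 306 in WT (ratio 42.8), and at 69139353 there were 4 in KO and 194 in WT (ratio 40.7). The last of these positions is the edge of a site of 3 events whose summed ratio was 3.69, so the difference was uneven within it. The leading events of the other 5 named sites, at 32348743, 58006062, 51087108, 72541933 and 45743786, had 7 to 29 reads in KO and 189 to 442 reads in WT, with ratios of 12.6 to 27.03. At the leading events of all 10, KO was at or below 29 reads; summed over whole sites, KO ranged from 6 to 414 reads.

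All 11 H3K4me3 events higher in KO were at least 2-fold apart on each of the 3 scales. Of this list over all chromosomes, 97.3% were so on the authors' scale, 96.2% on the chromosome-corrected scale and 100% on the own-background scale. Their KO-to-WT ratios were 2.65 to 18.2 on the authors' scale, 4.06 to 27.8 on the chromosome-corrected scale and 6.78 to 46.4 on the own-background scale. The largest stood at 98399415, with 234 reads in KO and 6 reads in WT (46.4, interval 21.0 to 128). The event at 47354235 had 171 reads in KO and 12 in WT (17.0, 9.47 to 33.5), and the event at 92124270 had 139 in KO and 10 in WT (16.55, 8.74 to 35.3). WT had 12 or fewer reads at these 3 positions.

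The event at 100570769 had 194 reads in KO and 17 in WT, and the pair at 70044855 and 70109429 had 223 and 161 reads in KO, against 26 and 16 in WT. At 108006734 there were 243 reads in KO and 26 in WT, and at 108856000 there were 265 in KO and 33 in WT. Own-background ratios of these 5 ran between 9.56 and 13.6. The lowest 3 were 30898380 (220 reads in KO, 28 in WT, 9.36), 60661455 (175 in KO, 29 in WT, 7.19) and 92102665 (262 in KO, 46 in WT, 6.78). No event had more than 46 reads in WT, and none had fewer than 139 in KO.

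In both directions, H3K27ac kept most of its events at 2-fold or more on all 3 scales. The H3K4me3 events higher in WT did so only on the authors' scale. The marks also differed on the other chromosomes. There, 37.8% of H3K4me3 and 98.2% of H3K27ac events higher in WT were at least 2-fold apart on the own-background scale. Of the 118 H3K27ac events higher in KO, 106 were at least 2-fold apart on the authors' scale (89.6% of this list over all chromosomes), 118 on the chromosome-corrected scale (86.6% over all) and 112 on the own-background scale (55.7% over all). Their median KO-to-WT ratio was 2.76, 4.37 and 3.27 on the 3 scales, against 2.87, 2.78 and 2.08 on the other chromosomes. As deposited, then, these events were much like those elsewhere. Their higher medians than elsewhere on the other 2 scales follow from dividing by the low KO background of chromosome 9. That background is among the values on which the chromosome was selected, so the rise is not a separate result about the events. Median reads at these events were 310.5 in KO and 135 in WT.

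Of the 148 H3K27ac events higher in WT, 144 were at least 2-fold apart on the authors' scale (95.5% over all chromosomes), 97 on the chromosome-corrected scale (92.2% over all) and 128 on the own-background scale (97.2% over all). The median WT-to-KO ratio was 4.13, 2.61 and 3.24, against 3.84, 3.89 and 4.82 elsewhere. Median reads at these events were 80 in KO and 332 in WT. Among H3K27ac events at least 2-fold apart on the own-background scale, 46.7% were higher in KO (112 of 240), against 74.0% on the other chromosomes; on the chromosome-corrected scale the share on chromosome 9 was 54.9% (118 of 215). Which genotype held more of the separated H3K27ac sites on chromosome 9 thus depended on the scale.

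For 103 of the 112 separated H3K27ac events higher in KO, the whole interval lay at 2-fold or more. The 112 events formed 87 sites. The leading one, at 47438522, had 543 reads in KO and 80 reads in WT, an own-background ratio of 9.47 (interval 7.47 to 12.1), within a site of 3 events between 47433882 and 47442892 that summed to 1163 reads in KO and 225 in WT. Next came 114451097, with 350 reads in KO and 75 in WT (6.51, 5.06 to 8.47). At 98399673 there were 381 reads in KO and 90 in WT (5.90, 4.68 to 7.51), 258 bp from the H3K4me3 event with the largest ratio in KO. The leading events of the other 7 named sites, at 47361213, 107209911, 47354096, 119074549, 61984814, 75084483 and 66555846, had 254 to 868 reads in KO and 59 to 224 reads in WT, with ratios of 5.13 to 6.20. Of the 10, 3 lie between 47354096 and 47442892.

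For 95 of the 128 separated H3K27ac events higher in WT, the whole interval lay at 2-fold or more. The 128 events formed 95 sites, and at 9 of the 10 named the leading event had fewer than 50 reads in KO. The first, at 27730467, had 10 reads in KO and 347 reads in WT, a WT-to-KO ratio of 24.9 (interval 13.4 to 52.4). The event at 58010685 had 28 reads in KO and 625 in WT (16.0, 11.0 to 24.3) and belongs to a site of 6 events from 57996383 that summed to 164 reads in KO and 2932 in WT, a ratio of 12.8 (10.95 to 15.1). At 25195008 there were 10 reads in KO and 260 in WT (18.6). The site around 110772455 held 5 events with 371 reads in KO and 3434 in WT, a summed ratio of 6.64, and its leading event had 55 in KO and 789 in WT (10.3).

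Of the 10 named WT sites, 5 lie close together, at 27609686, 27620825, 27730467, 27745976 and 27775944, and the reads of these leading events ran from 10 to 35 in KO and from 311 to 596 in WT. The 10 Mb around them, from 20 to 30 Mb, held no H3K27ac event higher in KO and 14 higher in WT. Of these 14, 8 lie from 27609686 to 27775944, and the named site at 25195008 is also among them. The median own-background ratio of 10.3 thus largely restates the named sites. The events from 22639345 to 23179868 had ratios of 1.90 to 5.04. The leading events of the remaining 2 named sites, at 68629664 and 106857413, had 20 and 39 reads in KO, against 309 and 470 in WT.

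The 2-fold line did not fall in a gap of the ratios, except for H3K4me3 in KO. Just outside it on the own-background scale were 60030501 (1.85) and 13979793 (1.95) for H3K27ac in KO, and just inside were 7250832 (2.01) and 120685465 (2.11). For H3K27ac in WT, 118939289 and 41134844 (both 1.98) stood outside, and 75205686 (2.003) and 78463784 (2.02) inside. For H3K4me3 in WT, 25289527 (1.97) and 48412905 (1.998) stood outside, and 83699231 (2.0002) and 121276305 (2.001) inside.

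H3K36me3 events were shallower. Median reads were 30 in KO and 13 in WT for the KO list, and 13.5 in KO and 78 in WT for the WT list. On the authors' scale, the median ratio was 3.59 for the 22 events higher in KO, against 4.06 on the other chromosomes, and 3.31 for the 624 events higher in WT, against 3.76. At least 2-fold were 621 of the 624 events, where 99.3% of this list over all chromosomes were. Corrected with the chromosome 9 background of H3K27ac or of H3K4me3, a step added after the values were seen, the WT median became 2.09 or 2.17, and 341 or 363 of the 624 events stayed at least 2-fold apart.

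At the H3K36me3 sites with the highest lower limits in WT, the leading events had 5 or fewer reads in KO, while whole sites summed to between 1 and 105 reads in KO. The 12 events from 50862730 to 50874365 summed to 37 reads in KO and 882 reads in WT, a WT-to-KO ratio of 14.1 (interval 10.1 to 20.1). Their leading event at 50863482 had no read in KO and 59 in WT. Its ratio was 11.6 with a floor of 3 reads set for KO, and the lower limit of its interval was 9.13. At 118781629 there were 2 reads in KO and 95 in WT (28.0, 7.54 to 234). The 8 events from 58134227 to 58150413 summed to 105 reads in KO and 1247 in WT (6.998, 5.73 to 8.62). The other named sites, at 118548984, 67218473, 58157752, 118793272 and 67341455, had 1 to 5 reads in KO and 65 to 125 in WT at their leading events. Several of these sites are close neighbours: 58134227 and 58157752, 67218473 and 67341455, and 118548984, 118781629 and 118793272.

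Of the 22 H3K36me3 events higher in KO, 10 lay between 47355080 and 47597320. The 2 with the largest ratios were there, at 47357419 (32 reads in KO, 4 in WT, 13.9, interval 4.93 to 54.2) and 47597320 (35 in KO, 5 in WT, 12.2, 4.75 to 39.8). Beside the centromere, 3 deep events were listed: 3026962 with 2317 reads in KO and 1466 in WT (2.75), 3004615 with 779 in KO and 613 in WT (2.21), and 3027593 with 874 in KO and 681 in WT (2.23). The other 19 events of this list had 64 or fewer reads in KO. The sites at 71501162, 66023390 and 36944311 had 64, 26 and 34 reads in KO, against 34, 10 and 16 in WT.

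The lean of H3K4me3 and H3K36me3 towards WT was spread along most of the chromosome. In each of 13 bins of 10 Mb, both H3K4me3 and H3K36me3 had more events higher in WT than in KO. The median WT-to-KO ratio of the H3K4me3 events was between 2.73 and 3.08 in these bins on the authors' scale. On the own-background scale, which differs here by 1 constant factor, it was between 1.05 and 1.19. The medians of listed events were thus much alike between bins. Only events past the authors' threshold are listed, so these medians cannot show whether the level was even along the chromosome. The 105 separated events were found in every bin, from 2 to 18 per bin. For H3K27ac, 7 bins had more events higher in KO, 5 had more higher in WT and 1 had as many of each. Over all chromosomes, 11.8% of listed H3K4me3 events and 33.8% of H3K36me3 events were higher in KO. A WT majority in most bins is therefore frequent by composition alone, and bins of the other chromosomes were not counted. In bins of 5 Mb, 1 of 25 had more H3K36me3 events higher in KO, with 3 in KO and 0 in WT from 0 to 5 Mb.

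In windows of 500 kb, 179 of 247 held events, and 5 of these had more events higher in KO, 171 had more higher in WT and 3 were equal. Of all 2332 events on chromosome 9, 2181 were higher in WT, so a WT majority in most windows is frequent by composition alone. Windows of the other chromosomes were not counted. The window from 47000001 to 47500000 held 27 events higher in KO and none higher in WT, and the next highest count in KO was 6. The window from 49500001 to 50000000 held 5 H3K27ac events higher in KO, between 49627393 and 49814542, and none higher in WT.

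The stretch at 47 Mb was higher in KO for all 3 marks. Its 17 H3K27ac events, from 47339045 to 47491666, summed to 4909 reads in KO and 1431 reads in WT, an own-background KO-to-WT ratio of 4.78 (interval 4.51 to 5.08), with 3.08 to 9.47 at single events. The H3K4me3 event at 47354235 stood among them. The 10 H3K36me3 events between 47355080 and 47597320 summed to 284 reads in KO and 87 in WT, a ratio of 5.68 on the authors' scale (4.45 to 7.30). The stretch thus held 17 of the 118 H3K27ac events and 10 of the 22 H3K36me3 events that were higher in KO on chromosome 9. Between 47 and 48 Mb, 1 event was higher in WT, an H3K4me3 event at 47970549 with 491 reads in KO and 678 in WT, a WT-to-KO ratio of 1.16 on the own-background scale.

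Where events of different marks lay within 1 kb of each other, they had the same direction. This held for all 29 H3K27ac events near an H3K4me3 event, all 5 H3K27ac events near an H3K36me3 event and all 50 H3K4me3 events near an H3K36me3 event. Agreement also prevailed on the other chromosomes. There, 381 H3K27ac events higher in KO lay near H3K4me3 higher in KO and 2 near H3K4me3 higher in WT. Of those higher in WT, 207 lay near H3K4me3 higher in WT and 0 near H3K4me3 higher in KO. In the same order, the counts were 69, 9, 35 and 0 for H3K27ac near H3K36me3. They were 15, 1, 187 and 2 for H3K4me3 near H3K36me3. Within 2 kb on chromosome 9, 12 of 13 H3K27ac events near an H3K36me3 event had its direction. Most listed H3K4me3 and H3K36me3 events on chromosome 9 are higher in WT, so same-direction pairs of these marks are frequent by composition alone. Grouping events that follow each other within 10 kb gave 833 places. Of those with all 3 marks, 1 held only events higher in KO and 11 held only events higher in WT. Of those with 2 marks, 6 were KO only, 94 were WT only and 5 held both directions.

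The place with all 3 marks higher in KO spans 47354096 to 47365063 and holds 3 H3K27ac events, 1 H3K4me3 event and 4 H3K36me3 events, with leading KO-to-WT ratios of 6.20, 17.0 and 13.9. Among the WT places, the first spans 57996383 to 58010685, with 6 H3K27ac events, 1 H3K4me3 event and 1 H3K36me3 event and leading WT-to-KO ratios of 16.0, 24.7 and 13.0. The next spans 110766012 to 110783999, with 6, 2 and 1 events and leading ratios of 10.3, 4.29 and 12.4. The place with the most events spans 43912733 to 43950372 and holds 5, 7 and 12 events of the 3 marks, with leading ratios of 3.11, 8.79 and 10.6. In these 4 places, and in the others named below, every mark had at least a 2-fold difference at its leading event. The places were picked by the lower limits of these same ratios, so this follows from the choice. The other named places span 67417765 to 67421733, 45743628 to 45750080, 83034346 to 83039881 and 57778003 to 57804201.

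H3K4me3 events that stayed apart from the background more often had a listed acetylation event higher in WT beside them. Acetylation alike in both genotypes is not listed, so the shares do not tell how many events had any acetylation nearby. Of the 105 events at least 2-fold higher in WT on the own-background scale, 24 lay within 1 kb of acetylation that was also higher in WT (22.9%, interval 15.2 to 32.1). Of the 1304 events under 2-fold, 11 did (0.844%, 0.422 to 1.504). On the other chromosomes the shares were 19.6% and 1.95%. The separated events were shallower, with medians of 73 reads in KO and 340 in WT, than the rest, with 575 in KO and 746.5 in WT. H3K36me3 events higher in WT were near 5 of the 105 (4.76%, 1.56 to 10.8) and near 44 of the 1304 (3.37%), the second share lying inside the interval of the first. On the other chromosomes these shares were 7.04% (5.82 to 8.42) and 2.996% (2.37 to 3.73).

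Across the 24 pairs formed by these separated H3K4me3 events and the nearest H3K27ac event higher in WT, the median distance was 225.5 bp, and in 21 the acetylation event was also at least 2-fold apart on the own-background scale, a share much like that of all H3K27ac events higher in WT on chromosome 9 (86.5%). Some acetylation events served 2 pairs, so the 24 pairs rest on 19 acetylation events, 16 of them at least 2-fold apart. In the KO list, 3 of the 11 H3K4me3 events lay within 1 kb of acetylation higher in KO (27.3%, interval 6.02 to 61.0), against 52.0% of 727 on the other chromosomes, a value inside that interval. The 3 were 47354235, with acetylation 139 bp away, 98399415, with acetylation 258 bp away, and 70109429, 681 bp from an H3K27ac event at 70108748 with 347 reads in KO and 135 in WT (3.58).

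**Figure D2:**
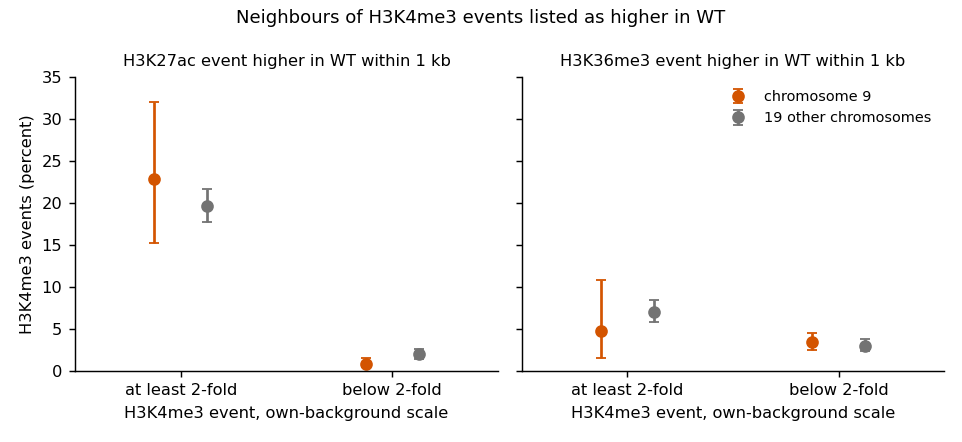
Share of H3K4me3 events higher in WT with an H3K27ac or H3K36me3 event higher in WT within 1 kb, for events at least 2-fold apart and under 2-fold apart on the own-background scale, on chromosome 9 and on the other chromosomes, with 95% Clopper-Pearson intervals. On chromosome 9, 22.9% of the separated events and 0.844% of the rest have a listed acetylation event higher in WT within 1 kb.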

How the data were processed

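ChIP-seq reads of Dicer KO and Dicer WT MSCs were aligned to mm9, and TopHat 1.4 is named without its role, per the submitters' processing notes. Per the file headers and names, the deposited events came from the programs GPS (H3K27ac in both directions, H3K36me3 higher in KO) and GEM (H3K4me3 in both directions, H3K36me3 higher in WT), of unstated version. Deposited columns used were the event reads (an estimated count), the scaled reads of the other genotype (an estimated count times the authors' factor), the expected background (signal), the authors' fold ratio and −log10 q, which only describes or filters events. Every listed event had already passed the authors' threshold, so events alike in both genotypes are not listed.

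The authors' factor was found by searching from 0.3 to 3 in steps of 0.0005 for the value that makes scaled reads under 200 whole within 0.06. It gave WT reads × 0.8495 (H3K27ac), 2.1455 (H3K4me3) and 0.575 (H3K36me3) in the KO lists, and KO reads × 1.0935, 0.4605 and 1.697 in the WT lists. In the same order of marks, whole values came to 90.0%, 95.0% and 96.4% in the KO lists and 93.9%, 65.6% and 92.5% in the WT lists, among events whose own count is whole. Reads of the other genotype were divided by this factor. Shares carry exact Clopper-Pearson intervals and ratios exact conditional binomial intervals at 95%, for counting error only. For H3K36me3 the program differs between the KO and WT lists, so program and direction cannot be told apart in counts and expected values set across them.

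Named sites had at least 50 reads in the higher genotype (20 for H3K36me3) and at least a 2-fold ratio, were merged within 5 kb and ranked by the lower limit of the ratio, 10 per list (8 for H3K36me3). All H3K4me3 events higher in KO, events with over 500 reads before position 3100000, up to 8 places with 3 marks, and the 2 events on each side of the 2-fold line were also named; the event at 106355861 and the windows were named after their values were seen. The members and lists were chosen with earlier results of these data known. Scripts were tested on simulated data (Python 3.11.15, SciPy 1.17.1, NumPy 2.4.6, matplotlib 3.10.9, pandas 2.3.3). No mm9 genome or annotation was used here, so no gene or surrounding sequence is given.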

Additional observations from a re-analysis of the deposited data

How the results depend on the processing

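Of 82 alternatives, 57 were classed as keeping the result, 24 as moving it and 1 as turning it round. Scaling had the largest part. The first class is loose for counts of events apart after scaling. For H3K27ac in KO it includes 76 at 3-fold and 87 merged within 5 kb, beside 112. For H3K27ac in WT it includes 97 (chromosome-corrected), 98 (−log10 q of at least 5) and 95 (merged), beside 128. Corrections of H3K36me3 with another mark's background and shares among events at least 2-fold apart were chosen after seeing the data. The share of H3K27ac events higher in KO crossed the middle, to 54.9%, among events 2-fold apart on the chromosome-corrected scale. The H3K4me3 share became 2.01% after merging within 5 kb, and 9.48% (own-background) or 1.79% (chromosome-corrected) among 2-fold events. The H3K36me3 share became 1.23% at −log10 q of at least 5 and 0.758% at 50 or more reads. Medians on the authors' and chromosome-corrected scales were 2.76 and 4.37 (H3K27ac, KO), 4.13 and 2.61 (H3K27ac, WT over KO), 4.36 and 6.66 (H3K4me3, KO), and 2.94 and 1.92 (H3K4me3, WT over KO). The H3K36me3 median in KO was 2.49 at 50 or more reads, which left 4 events, 3 of them the deep ones beside the centromere. It was 5.68 or 5.48 when corrected with the H3K27ac or H3K4me3 background. In WT over KO the H3K36me3 median was 3.13 with 1 read added, and 2.09 or 2.17 corrected. Counts of events apart after scaling were 80 for H3K27ac in WT at 3-fold, and for H3K4me3 in WT 1319 (authors' scale), 603 (chromosome-corrected), 203 (1.5-fold) and 65 (3-fold). H3K27ac and H3K36me3 had no neighbours within 500 bp, so that setting has no value. Depth limits the ratios of sites with under 10 reads in 1 genotype, whose intervals span several-fold. No paired analysis was possible because each genotype has a single value per mark; for the same reason nothing could be left out in turn.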
